A study of Mus musculus with 11 samples.

Results

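The subunits of the fast, ion-conducting receptors for glutamate, GABA and glycine were mapped over the cell types of the mouse hindbrain and upper spinal cord, and then compared between sample groups. The set held 31 of the 25827 genes in the deposited matrices, named by symbol: Gria1 to Gria4, Grik1 to Grik5, Grin1, Grin2a to Grin2d, Grin3a, Grin3b, Grid1, Gabra2 to Gabra6, Gabrb1, Gabrb2, Gabrg1, Gabrg3, Gabrd, Glra1 to Glra3 and Glrb. Other subunits of these families were not analysed here. Together the 31 genes held 6403427 unique molecular identifiers (UMIs, each a captured RNA molecule), from 1690 for Grin3b to 1597228 for Grik2.

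Nuclei came from cerebellum, brainstem and cervical spinal cord, tissues that were pooled in each sample, of male mice aged 8 to 12 weeks. All mice were Il12rb2fl/fl (here fl), that is, had loxP sites flanking part of the gene of an interleukin-12 receptor chain, and the NestinCre/+Il12rb2fl/fl mice (here NestinCre) had in addition a Cre recombinase under the Nestin promoter, which acts in the neural precursors that give rise to neurons, astrocytes and oligodendrocytes but not to microglia. Mice were naive (not immunized) or at day 10 of experimental autoimmune encephalomyelitis (EAE), a model of multiple sclerosis induced with the myelin peptide MOG35-55 in complete Freund's adjuvant and pertussis toxin. The groups comprised 4 libraries of fl EAE, 4 of NestinCre EAE, 2 of fl naive and 1 of NestinCre naive. They were sequenced in 3 runs, with EAE replicates 1 to 3 of both genotypes in run 1, both EAE replicates 4 together with fl naive 2 in run 2, and the naive libraries fl naive 3 and NestinCre naive 2 in run 3.

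Libraries held between 40761007 and 86063464 UMIs on 13120 to 22951 barcodes, and 161267 nuclei were kept after doublets were left out. Of these, 147262 fell into 14 classes that each had at least 10 nuclei in every library, 9 of neurons and 5 of glia. The classes were named from marker genes that did not include any receptor subunit, and 42 receptor genes were kept out of the clustering. Il12rb2 itself was at 10.9 to 16.7 UMIs per 1000000 (CPM) in fl EAE and at 8.01 to 16.7 CPM in NestinCre EAE, but tags from the 3′ end or from introns need not come from the deleted part, so this does not check the labels. Nes, whose promoter drives the transgene, was at 0.0428 to 0.140 CPM in fl EAE and at 0.720 to 1.08 CPM in NestinCre EAE, and at 0.0187 to 0.0411 CPM in fl naive and 1.16 CPM in NestinCre naive, so the higher values were those of the libraries labelled NestinCre. In the Purkinje class, fl EAE 4 stood apart, with more nuclei at fewer UMIs each than the other libraries. Across libraries, 4288 of 185366 barcode sequences occurred in more than 1 library.

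Fast synaptic signalling rests on these proteins. AMPA receptors carry most of the fast excitatory current, kainate receptors modulate it on both sides of the synapse, and NMDA receptors need glutamate, a co-agonist and depolarisation together before they pass calcium. GABA-A receptors and glycine receptors pass chloride and inhibit most adult neurons, glycine mainly in brainstem and spinal cord. The cerebellum is a classic tissue for subunit choice, because its few cell types each build receptors from a different selection of subunits, and its Bergmann glia, radial astrocytes that wrap Purkinje cell synapses, carry AMPA receptors of their own.

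Granule cells, the small excitatory neurons that make up most cerebellar nuclei, are the best known example, with a GABA-A receptor that holds the alpha 6 subunit (Gabra6) and an NMDA receptor that holds the GluN2C subunit (Grin2c). Both genes were highest in granule cells here, so the 250 bases before their start sites are printed below. They were copied from the RefSeq promoter table (build GRCm38.p6, whereas the counts use GRCm39), which had a window for 22 of the 31 genes. Capitals mark TGCCAA, the reverse complement of TTGGCA, a half-site of the nuclear factor I family, searched on both strands.

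Gabra6, chr11:42321073-42321322, minus strand: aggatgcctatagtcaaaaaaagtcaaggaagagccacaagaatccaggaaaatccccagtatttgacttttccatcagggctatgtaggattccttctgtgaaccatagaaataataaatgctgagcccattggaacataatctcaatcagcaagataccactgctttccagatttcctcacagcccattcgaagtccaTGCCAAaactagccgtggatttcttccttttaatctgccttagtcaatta

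Grin2c, chr11:115267244-115267493, minus strand: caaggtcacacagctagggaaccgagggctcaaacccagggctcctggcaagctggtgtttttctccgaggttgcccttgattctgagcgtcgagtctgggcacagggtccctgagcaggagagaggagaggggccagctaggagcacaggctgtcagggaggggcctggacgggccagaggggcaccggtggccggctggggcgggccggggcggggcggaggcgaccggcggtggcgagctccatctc

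The Gabra6 window held 1 match, 2 CG dinucleotides and 40.8% G and C, and the Grin2c window held no match, 15 CG dinucleotides and 68.8% G and C. Of 32851 promoter windows in the table, 4034 (12.3%) held the motif, and the median window held 6 CG dinucleotides. The pair of promoters therefore differed in base composition although both genes peaked in the same cells.

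Levels are given as CPM of all UMIs of a class in a library, as the lowest, the median and the highest of the 11 libraries. Because the assay counts intronic RNA, long genes collect more UMIs, so CPM are compared between classes for a gene, and between genes only after division by the length of the gene. No test was run on the levels by class, because nuclei of all classes came from the same 11 libraries. Of the 31 subunits, 22 had their highest median in a class of neurons and 9 in a class of glia (27 and 4 when UMIs were divided by nuclei). For 14 of them the libraries of the highest class lay entirely above those of the next class, and for 17 the ranges overlapped. The same counts over all genes are not given, and 9 of the 14 classes are of neurons. These counts therefore do not set the subunits apart from other genes. Below, highest means highest in CPM.

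**Figure D1:**
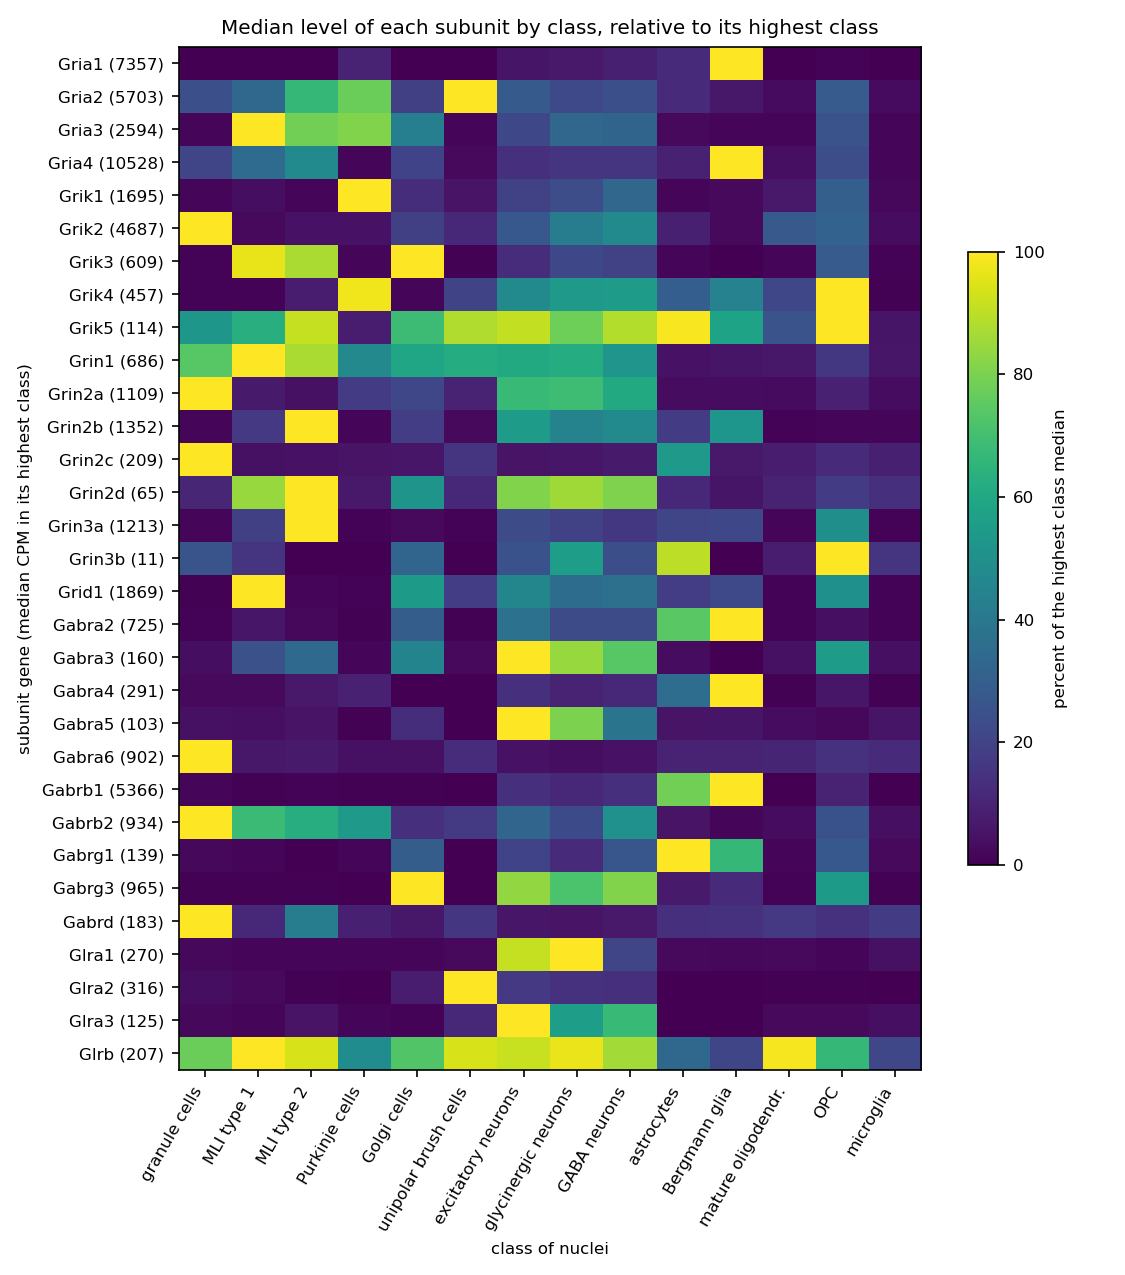
Median level of each of the 31 subunits (rows) in each of the 14 classes of nuclei (columns), as a percent of the subunit's highest class median, which is given in CPM beside the gene. MLI stands for molecular layer interneurons and OPC for oligodendrocyte progenitor cells. Gria1, Gabra6 and Glra2 each have a single bright class, whereas Grin1, Grik5 and Glrb are spread over many.

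Among the AMPA receptor genes, Gria1 and Gria4 were highest in Bergmann glia. Gria1 was at 6240.7, 7357.0 and 9092.3 CPM there, 8.48 times the median of the next class, other astrocytes (867.7 CPM), and the libraries of the 2 classes did not overlap. In granule cells and both kinds of molecular layer interneurons the median was between 9.74 and 14.3 CPM. Purkinje cells (730.2 CPM), GABA neurons (659.2 CPM), glycinergic neurons (507.1 CPM) and excitatory neurons (426.6 CPM) formed a middle group for this gene. Gria4 was at 9981.5, 10528.3 and 12640.2 CPM in Bergmann glia, 2.10 times type 2 molecular layer interneurons (5008.8 CPM), and had its lowest neuronal median in Purkinje cells (148.6 CPM).

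Gria2 encodes the subunit that makes AMPA receptors impermeable to calcium once its transcript is edited. It was highest in unipolar brush cells, excitatory interneurons of the granular layer, at 5324.8, 5703.0 and 6831.3 CPM, and Purkinje cells followed without overlap at a median of 4432.3 CPM. Gria3 was highest in type 1 molecular layer interneurons (2359.8, 2594.4 and 2937.0 CPM) and was next in Purkinje cells (2100.7 CPM), with overlap. In granule cells Gria3 was at a median of 43.2 CPM, so these cells carried Gria2 and Gria4 alone of the 4 genes above 100 CPM.

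Divided by gene length, the 4 AMPA genes gave a different mixture in each class. Gria2 made up 98.1% ± 0.827 (SD, n = 11) of their UMIs per kb in unipolar brush cells, 77.0% ± 2.51 in Purkinje cells and 64.7% ± 2.67 in granule cells. In Bergmann glia it made up 5.38% ± 1.70, against 42.0% ± 2.62 for Gria1 and 52.4% ± 2.65 for Gria4. Other astrocytes lay between, with Gria2 at 51.2% ± 10.3 and Gria1 at 25.0% ± 7.15. The low share of Gria2 therefore set Bergmann glia apart from every other mapped class, the next lowest of which was type 1 molecular layer interneurons at 45.2% ± 2.35. The order of the genes within a class rests on the division by length: undivided, another gene led in 9 of the 14 classes, among them granule cells, where Gria4 was at a median of 2206.0 CPM and Gria2 at 1390.2 CPM.

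**Figure D2:**
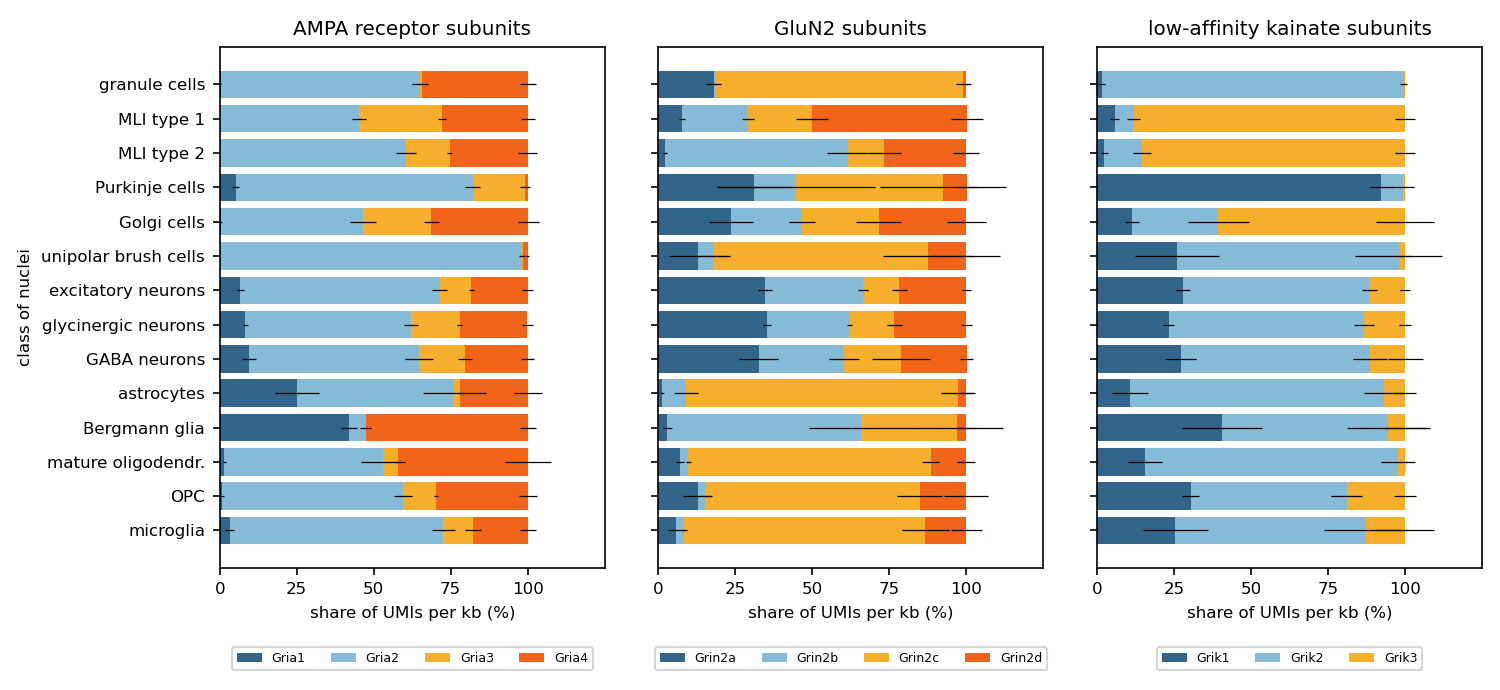
Share of each subunit in the UMIs per kb of gene of its set (x axis, percent) in each class of nuclei, as the mean of 11 libraries with SD bars at the end of each segment, for AMPA, GluN2 and low-affinity kainate genes. Gria2 fills 98.1% of the bar in unipolar brush cells and 5.38% in Bergmann glia, Grin2c 80.7% in granule cells, and Grik1 92.3% in Purkinje cells.

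The low-affinity kainate receptor genes, Grik1 to Grik3, divided the cerebellar cortex between them. Grik1 was highest in Purkinje cells at 1491.4, 1695.2 and 1875.4 CPM, 3.03 times GABA neurons (559.2 CPM) and without overlap. Grik2 was highest in granule cells at 3697.2, 4686.8 and 5494.6 CPM, 2.09 times GABA neurons (2244.5 CPM), and was at medians of 111.4 to 232.7 CPM in both kinds of molecular layer interneurons and Purkinje cells. Grik3 was highest in Golgi cells, inhibitory neurons of the granular layer, at 514.2, 609.4 and 880.1 CPM, and overlapped with type 1 (588.2 CPM) and type 2 (531.4 CPM) molecular layer interneurons. As shares of UMIs per kb, Grik2 was 98.1% ± 1.16 of the 3 genes in granule cells, Grik1 was 92.3% ± 3.78 in Purkinje cells, and Grik3 was 88.1% ± 3.21 in type 1 and 85.3% ± 3.23 in type 2 molecular layer interneurons. In Golgi cells the Grik3 share was 60.6% ± 9.39, although undivided Grik2 was higher there (886.0 CPM). In the other 13 classes the same gene led on either scale.

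The high-affinity kainate genes Grik4 and Grik5, whose proteins need a low-affinity partner, were both highest in oligodendrocyte progenitor cells. Grik4 was at 357.1, 456.9 and 651.8 CPM there and at a median of 447.8 CPM in Purkinje cells, and these classes overlapped. Grik5 was at 89.2, 114.1 and 157.5 CPM, close to astrocytes (113.0 CPM) and with medians over 60 CPM in all neuron classes other than Purkinje cells (9.30 CPM). Purkinje cells thus had Grik1 and Grik4 above 300 CPM and Grik5 under 10 CPM. The first place of progenitor cells depended on the setting. Grik4 was highest in Purkinje cells with scored doublets kept and per nucleus. Grik5 was highest in excitatory neurons with nuclei over 6000 UMIs left out and per nucleus.

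Of the NMDA receptor genes, the obligatory subunit Grin1 was the most even over the neuron classes. Its medians ran from 322.7 CPM in Purkinje cells to 686.0 CPM in type 1 molecular layer interneurons (569.1 to 748.4 CPM) over the neuron classes, and the glia classes had medians of 34.7 to 112.2 CPM. Grin2a and Grin2c were highest in granule cells, Grin2a at 908.3, 1108.6 and 1185.9 CPM and Grin2c at 174.0, 209.3 and 273.8 CPM. Grin2c was also at a median of 112.3 CPM in astrocytes, 53.6% of the granule cell level, while it was at 4.44% to 15.2% of that level in the other classes. Grin2b, in contrast, was at 16.7 CPM in granule cells and highest in type 2 molecular layer interneurons (1161.2, 1351.5 and 1541.6 CPM), 1.81 times excitatory neurons (745.5 CPM).

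The GluN2 mixture per kb was mainly Grin2c in granule cells (80.7% ± 2.47, with Grin2a at 18.0% ± 2.44) and in astrocytes (88.4% ± 5.49). Grin2c also led per kb in mature oligodendrocytes (78.7%), microglia (78.3%), oligodendrocyte progenitor cells (69.6%), unipolar brush cells (69.6%) and Purkinje cells (47.8% ± 20.4, from 0 to 72.6%). Its medians in those classes were only 11.1 to 31.9 CPM, or 5.30% (Purkinje cells) to 15.2% (unipolar brush cells) of its granule cell level. In each of those classes that share was below the one of 4 granule cell transcripts described below (6.87% in Purkinje cells to 26.6% in oligodendrocyte progenitor cells). The part of granule cell RNA was not tested. The mixture was mainly Grin2b in type 2 molecular layer interneurons (59.3% ± 6.67) and in Bergmann glia (63.0% ± 16.9). In type 1 molecular layer interneurons Grin2d, the gene of the slowest GluN2 subunit, held 50.2% ± 5.25. Here too the order rests on the division by length, and undivided another gene led in 9 of the 14 classes. Undivided, Grin2a was at a median of 1108.6 CPM and Grin2c at 209.3 CPM in granule cells, Grin2b was at 242.1 CPM and Grin2c at 112.3 CPM in astrocytes, and Grin2b was at 225.0 CPM (192.1 to 252.2) and Grin2d at 54.7 CPM (42.3 to 63.4) in type 1 molecular layer interneurons. In type 2 molecular layer interneurons and Bergmann glia Grin2b led on either scale.

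Grin3a, which lowers the calcium flow of NMDA receptors, was also highest in type 2 molecular layer interneurons, at 995.3, 1213.3 and 1467.9 CPM, 2.01 times oligodendrocyte progenitor cells (604.5 CPM) and more than in type 1 cells (170.6 to 253.6 CPM). Grin2d had its highest median, 64.7 CPM, again in type 2 cells but overlapping with glycinergic neurons (55.5 CPM). Grin3b stayed at a median of at most 10.7 CPM in every class. Both genes are short (46.5 kb for Grin2d and 6.48 kb for Grin3b, against 460.3 kb for Grin2b), so these CPM do not rank them against the other genes. In Purkinje cells Grin2b ranged from 2.22 to 754.1 CPM around a median of 16.8 CPM, the highest value coming from NestinCre EAE 3 and the next, 186.0 CPM, from fl EAE 2.

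Grid1, which encodes the delta 1 subunit, a synapse organiser related to the ionotropic receptors, separated the molecular layer interneurons in the other direction. It was at 1682.3, 1868.7 and 2190.3 CPM in type 1 cells, 1.83 times Golgi cells (1020.7 CPM), and at 15.2, 30.3 and 38.1 CPM in type 2 cells. Oligodendrocyte progenitor cells (937.3 CPM) and excitatory neurons (856.0 CPM) were near Golgi cells for this gene.

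**Figure D3:**
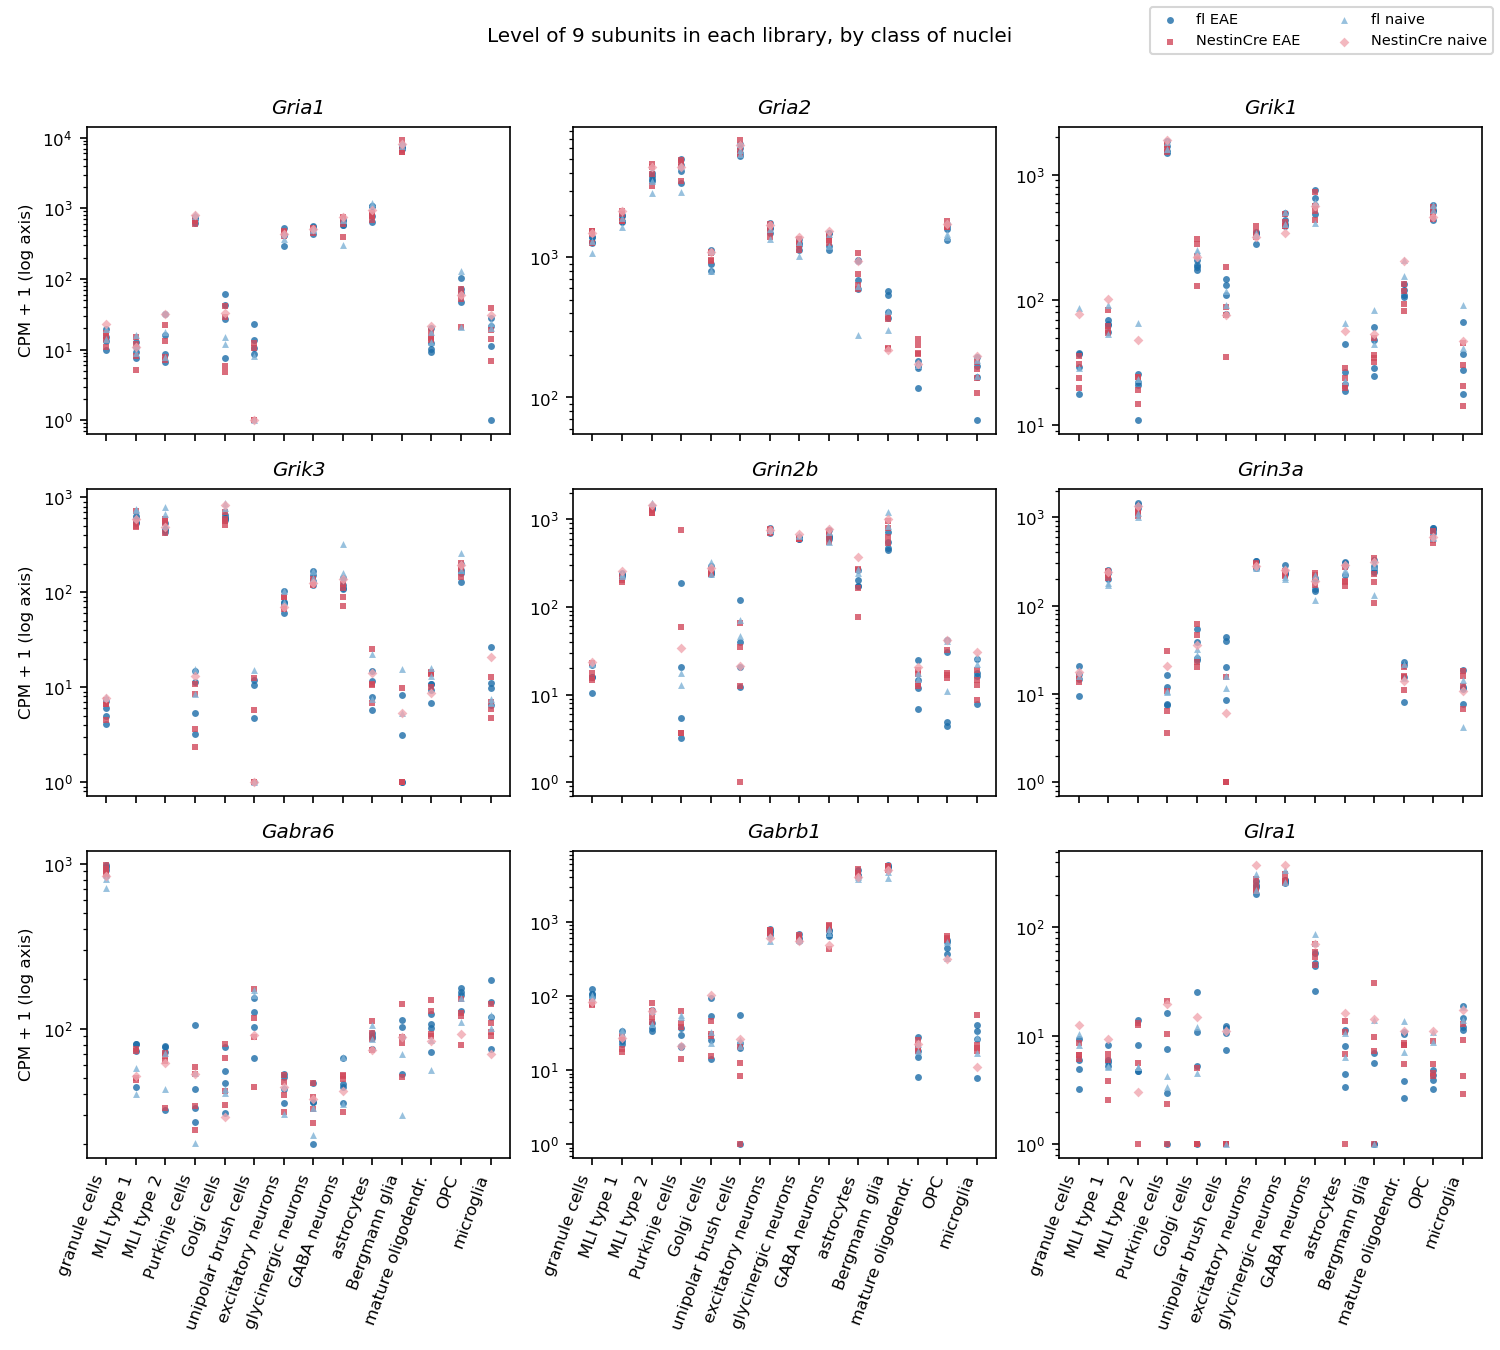
Level of 9 subunits in each of the 11 libraries (points, shaped and coloured by sample group) for each class of nuclei, as CPM + 1 on a log axis. Gria1 and Gabrb1 stand highest in Bergmann glia, Grik1 in Purkinje cells, Gabra6 in granule cells and Glra1 in excitatory and glycinergic neurons. The 4 groups are mixed at most of these positions. In CPM, EAE and naive libraries do not overlap for Gabra6 in granule cells and for Gabrb1 in Bergmann glia (4959.4 to 5935.5 against 3954.2 to 4946.8 CPM).

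The listed GABA-A genes fell into sets for granule cells, glia, and brainstem and spinal cord neurons. Granule cells had the highest Gabra6 (712.3, 901.8 and 987.3 CPM), Gabrd (161.9, 183.4 and 216.6 CPM) and Gabrb2 (750.9, 933.8 and 1099.7 CPM). The alpha 6 and delta proteins form extrasynaptic receptors that sense ambient GABA. Gabra6 was 7.10 times the next class and Gabrd was 2.39 times type 2 molecular layer interneurons (76.8 CPM), both without overlap, whereas Gabrb2 overlapped with type 1 molecular layer interneurons (636.4 CPM).

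Transcripts of granule cells were found at a lower level in all other classes, and the part of granule cell RNA in these values was not tested. A sum of 4 granule cell transcripts that are not receptor genes (Fat2, Cbln3, Neurod1 and Etv1) was at 4.61% (glycinergic neurons) to 26.6% (oligodendrocyte progenitor cells) of its granule cell level, and Gabra6 was at 14.1% in oligodendrocyte progenitor cells, 10.2% in mature oligodendrocytes and 11.8% in microglia. Each of these shares of Gabra6 was below that of the 4 transcripts in the same class (26.6%, 21.1% and 23.9%). Divided by gene length, Gabra6 (14.6 kb, the shortest of the listed alpha genes) led these genes in every class. It held 98.1% of their UMIs per kb in microglia and 46.0% in glycinergic neurons, at 106.6 and 35.0 CPM. Undivided, another alpha gene led in 6 of the 14 classes. Division by length gives more weight to short genes at low CPM, Grin2c (18.5 kb) among them. Gabrd in type 2 molecular layer interneurons stood out, at 41.9% of the granule cell level where the 4 transcripts were at 9.06%.

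Glia had the highest Gabrb1, Gabra2, Gabra4 and Gabrg1 in CPM. Per nucleus, Gabra2 was highest in excitatory neurons and Gabrg1 in Golgi cells. Gabrb1 was at 3954.2, 5366.0 and 5935.5 CPM in Bergmann glia and at 4214.8 CPM in astrocytes, with overlap, and the highest neuronal median was 742.6 CPM in GABA neurons. Gabra2 was at 484.1, 724.7 and 1006.9 CPM in Bergmann glia and at 538.0 CPM in astrocytes. Gabra4 was at 127.8, 290.8 and 527.2 CPM in Bergmann glia and at 103.6 CPM in astrocytes, and Gabrg1 was highest in astrocytes at 102.2, 138.9 and 179.3 CPM. For all 4 genes, astrocytes and Bergmann glia overlapped and held the first and second place in CPM.

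Neurons outside the cerebellar cortex had the highest Gabra3 and Gabra5, and Golgi cells had the highest Gabrg3. Gabra3 was at 135.0, 160.3 and 185.3 CPM in excitatory neurons and overlapped with glycinergic neurons (135.6 CPM). Gabra5, which in other brain regions is largely extrasynaptic, was at 93.5, 102.8 and 122.9 CPM in excitatory neurons and did not overlap with glycinergic neurons (62.4 to 90.5 CPM). Gabrg3 was at 759.9, 964.6 and 1477.2 CPM in Golgi cells, overlapping with excitatory neurons (807.0 CPM), and at 4.57 to 7.08 CPM in granule cells and both kinds of molecular layer interneurons.

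Of the glycine receptor alpha genes, Glra1, the adult alpha subunit, was at 254.3, 270.1 and 379.0 CPM in glycinergic neurons and at 246.7 CPM in excitatory neurons, with overlap, and at 56.9 CPM in GABA neurons. Glra2 was highest in unipolar brush cells at 221.6, 316.2 and 472.8 CPM, 6.03 times excitatory neurons (52.4 CPM) and without overlap. Glra3 was at 97.0, 125.1 and 164.9 CPM in excitatory neurons and overlapped with GABA neurons (84.3 CPM). Per kb, Glra2 was 91.9% ± 6.28 of the 3 alpha genes in unipolar brush cells, Glra1 was 83.5% ± 2.88 in glycinergic and 73.7% ± 5.05 in excitatory neurons, and GABA neurons divided between Glra1 (48.0% ± 10.6) and Glra3 (34.7% ± 7.57), in the reverse order of their undivided levels.

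Glrb, the beta subunit that anchors glycine receptors to the scaffold protein gephyrin, did not follow the alpha genes. It was at medians of 100.9 to 207.3 CPM in all 9 neuron classes, highest in type 1 molecular layer interneurons (176.8, 207.3 and 232.7 CPM), and at 204.8 CPM (186.5 to 236.7) in mature oligodendrocytes. In mature oligodendrocytes the alpha genes were at medians of 1.86 to 7.29 CPM. Glrb was, with Grik2 (1302.5 CPM), Gria4 (431.7 CPM), Gria2 (172.8 CPM) and Grik1 (118.3 CPM), among the 5 subunits at 100 CPM or more in that class.

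Counted by class, excitatory neurons had the most subunits at a median of 100 CPM or more, 22 of the 31. Glycinergic and GABA neurons followed with 20 each and oligodendrocyte progenitor cells with 17. Golgi cells and astrocytes had 14 each, Bergmann glia 12 and granule cells 10. Type 1 and type 2 molecular layer interneurons, Purkinje cells and unipolar brush cells had 11 each. Mature oligodendrocytes had 5 and microglia 4 (Grik2, Gria2, Gria4 and Gabra6). Some of these levels lay, relative to granule cells, below the share that the granule cell transcripts reached in the class. This held for all 4 in microglia (transcripts at 23.9%), for 2 of 5 in mature oligodendrocytes (21.1%; Gria2 and Gria4), for 4 of 17 in oligodendrocyte progenitor cells (26.6%; Grin1, Grin2a, Gabra6 and Gabrb2) and for 5 of 11 in unipolar brush cells (23.0%; Gria4, Grik2, Grin2a, Gabra6 and Gabrb2). It held for 2 or fewer in each of the other classes, and the part of free RNA in these counts was not tested. The list depends on the reference. Gabra6 and Grin2c were at 10.2% and 8.12% of their granule cell level in mature oligodendrocytes, under Gria2 (12.4%) and Gria4 (19.6%). In oligodendrocyte progenitor cells they were at 14.1% and 11.9%, under Grin1 (22.1%) and Gabrb2 (25.3%) but over Grin2a (9.21%). The counts by class use CPM undivided by length, and they pool 39 clusters in excitatory and 19 in glycinergic neurons. Golgi cells, unipolar brush cells and type 2 molecular layer interneurons were 1 cluster each. Gabra5 reached 100 CPM in 14 of the 39 excitatory clusters and Glra3 in 24, whereas Gria2 and Grin1 reached it in all 39.

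Subunits with a like distribution were found by Pearson's r of log medians over the 14 classes, which share libraries and may share free RNA. The closest pairs were Gabra5 with Glra1 (0.94), Glra1 with Glra3 (0.91), Gabra2 with Gabrg1, Gabra4 with Gabrb1 and Gabra4 with Gria1 (0.89 each), Grin1 with Gabrb2 (0.88) and Gabra6 with Gabrd (0.87). Several of these genes are neighbours in the genome. On chromosome 5 (GRCm39), Gabrg1 lies 114.6 kb from Gabra2, Gabra2 lies 468.1 kb from Gabra4, and Gabra4 and Gabrb1 overlap by 267 bases on opposite strands, and r among these 4 genes was 0.67 to 0.89. For neighbours on other chromosomes, r was 0.73 for Gabra5 and Gabrg3 (18.2 kb apart, chromosome 7), 0.52 for Glrb and Gria2 (38.6 kb, chromosome 3) and 0.09 for Gabra6 and Gabrb2 (98.6 kb, chromosome 11).

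The classes outside the cerebellar cortex are mixtures, and most of the subunits given here ranged more widely over their clusters than over the libraries. Over the 39 excitatory clusters, Gabrg3 ran from 25.0 to 3941.9 CPM (median 796.8), Gabra5 from 26.4 to 493.4 CPM (median 73.3), Glra3 from 1.30 to 582.3 CPM (median 128.0) and Grin2a from 124.4 to 2201.7 CPM (median 676.4). Grin1 was even here too, from 283.9 to 517.7 CPM. Over 19 glycinergic clusters, Grik1 ran from 19.9 to 1522.2 CPM (median 302.9), and its highest value was in a cluster of 200 nuclei led by Cdh3, Pax8 and Pax2. Over the 15 granule cell clusters, Gabra6 ran from 811.4 to 969.0 CPM, Grik2 from 3598.8 to 5602.6 CPM and Gabrb1 from 25.5 to 251.8 CPM (median 57.6). These are descriptions of clusters made from the same nuclei.

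A few rarer neurons had under 10 nuclei in some library and were left out of the map and the tests. In 133 cholinergic nuclei (5 to 32 per library), marked by Chat, Glra1 was at a median of 365.6 CPM. In 157 monoaminergic nuclei (4 to 39 per library) Gabrb1 was at 1708.5 CPM and Glra2 at 176.7 CPM. Both Gabrb1 and Glra2 had lower medians than this in all mapped neuron classes other than unipolar brush cells for Glra2.

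The first comparison asked how loss of Il12rb2 from the neural lineage went with the receptor subunits at day 10 of EAE. It set 4 NestinCre EAE against 4 fl EAE libraries in each class with edgeR's quasi-likelihood test, with sequencing run in the model and Benjamini-Hochberg adjustment over all genes of a class. Most subunits did not pass the test: of 384 pairs of subunit and class with at least 20 UMIs, 4 were called at an adjusted p under 0.05 (1.04%, against 0.797% of all gene and class pairs), 2 higher and 2 lower. The calls were Gria2 in mature oligodendrocytes and Grik2 in microglia, both higher in NestinCre EAE, and Gabrb1 in granule cells and Gabra4 in astrocytes, both lower. Of the 252 neuronal pairs 1 was called (0.355% of all neuronal gene and class pairs were), and of 132 glial pairs 3 (1.71% of all glial pairs). The median size of the difference was 0.12 (log2) in neurons and 0.29 in glia, and for 277 pairs the 95% interval lay within 1 log2 unit of no difference. The summed level of 7 interferon-stimulated genes, a list that includes B2m and Ifit2, moved with genotype in the same libraries, and in all 14 classes it was higher in every NestinCre EAE than in every fl EAE library. It was at 24.9 to 138.7 CPM in fl EAE and 308.1 to 966.4 CPM in NestinCre EAE in mature oligodendrocytes (0 of 7 genes at a median of 20 CPM or more over all 11 libraries), at 320.3 to 1010.5 and 2197.8 to 2469.0 CPM in microglia (6 of 7), at 9.21 to 32.3 and 76.5 to 297.6 CPM in granule cells (0 of 7) and at 54.8 to 148.6 and 352.9 to 861.2 CPM in astrocytes (2 of 7). Most of the 11 libraries are not NestinCre EAE, so these counts do not describe the level of the genes in NestinCre EAE. None of the 7 genes was at 0 in every library, and their part in the 4 calls was not tested.

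Gria2 (ENSMUSG00000033981, chr3:80588757-80710538, minus strand, GRCm39) in mature oligodendrocytes was at 160.3, 167.7, 180.2 and 115.0 CPM in fl EAE 1 to 4 and at 236.4, 262.0, 204.5 and 206.5 CPM in NestinCre EAE 1 to 4. All 4 NestinCre EAE libraries were above all 4 fl EAE libraries. The log2 difference was 0.54 (SE 0.10, 95% interval 0.32 to 0.76, edgeR adjusted p = 0.013). Naive libraries were at 168.3 and 170.6 CPM (fl) and 172.8 CPM (NestinCre). The summed markers of granule cells in mature oligodendrocytes were at 398.6 to 583.5 CPM in fl EAE and 455.6 to 609.6 CPM in NestinCre EAE, 6 of 7 of them at 20 CPM or more, and those of oligodendrocyte progenitor cells were at 104.6 to 143.1 and 114.7 to 166.4 CPM, 2 of 6 at 20 CPM or more. Gria2 was at 12.4% of its granule cell level in this class, below the 21.1% of the 4 granule cell transcripts and above the 10.2% of Gabra6. The part of granule cell RNA or of progenitor markers in this result was not tested. The call was lost without fl EAE 1 (0.52, adjusted p = 0.075) or fl EAE 2 (0.54, adjusted p = 0.062) and without run in the model (0.53, adjusted p = 0.054). Grik2 in this class had non-overlapping groups as well (means 1571.5 against 1120.9 CPM) but was not called (0.47, adjusted p = 0.12).

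Grik2 (ENSMUSG00000056073, chr10:48970929-49664880, minus strand) in microglia was at 92.4, 132.6, 128.5 and 88.1 CPM in fl EAE 1 to 4 and at 251.5, 204.4, 155.0 and 168.9 CPM in NestinCre EAE 1 to 4. The groups did not overlap, and the log2 difference was 0.84 (SE 0.20, interval 0.44 to 1.25, adjusted p = 0.0067). The naive libraries, at 213.1 and 180.9 CPM (fl) and 135.4 CPM (NestinCre), were all above the 4 fl EAE libraries. The microglial level was 3.31% of the granule cell level of Grik2, while the 4 granule cell transcripts were at 23.9% in microglia. The 7 granule cell markers together were at 386.3 to 811.9 CPM in fl EAE and 404.5 to 731.6 CPM in NestinCre EAE microglia, and the 7 markers of mature oligodendrocytes, a class with a Grik2 median of 1302.5 CPM, at 416.8 to 1522.4 and 542.2 to 1173.4 CPM, with 6 of 7 in each list at 20 CPM or more. Their part was not tested. In microglia 5.01% of all genes tested were called, and the call for Grik2 was lost without NestinCre EAE 1 (0.69, adjusted p = 0.054) and when nuclei over 6000 UMIs were left out (0.67, adjusted p = 0.052).

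Gabrb1 (ENSMUSG00000029212, chr5:71815456-72319431, plus strand) in granule cells was at 95.9, 104.1, 124.3 and 104.5 CPM in fl EAE 1 to 4 and at 75.4, 78.8, 77.7 and 80.9 CPM in NestinCre EAE 1 to 4. The groups did not overlap, and the log2 difference was -0.48 (SE 0.08, interval -0.66 to -0.30, adjusted p = 0.016). The naive libraries were at 103.7 and 92.2 CPM (fl) and 81.2 CPM (NestinCre), so each lay near the EAE libraries of its own genotype, with a single NestinCre naive library. The call was lost without fl EAE 2 (-0.50, adjusted p = 0.064). The 7 Bergmann glia markers, from the class with the highest Gabrb1, were at 69.6 to 90.2 CPM in fl EAE and 73.1 to 97.8 CPM in NestinCre EAE granule cells, 1 of 7 at 20 CPM or more. The 8 markers of astrocytes, the class with the next highest Gabrb1 (4214.8 CPM), were at 82.5 to 132.1 CPM in fl EAE granule cells. In NestinCre EAE granule cells they were at 94.3 to 129.7 CPM, 1 of 8 at 20 CPM or more. The groups overlapped for both lists, and the part of either in the result was not tested.

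Looked at after the values were seen, and with no test, the granule cell difference was larger in the clusters that carry most Gabrb1. The 3 clusters led by Svep1 had 222.7 to 243.9 CPM in fl EAE and 163.8 to 169.2 CPM in NestinCre EAE, and 200.0 to 217.8 and 162.3 CPM in fl naive and NestinCre naive. In the other granule cell clusters the groups overlapped, at 40.7 to 61.1 and 40.5 to 42.5 CPM. Their means of 48.6 CPM in fl EAE and 41.3 CPM in NestinCre EAE differed in the same direction. The Svep1 clusters were 23.6% to 27.8% of granule cell nuclei in fl EAE and 22.2% to 25.1% in NestinCre EAE, which also overlapped. The clustering used the genes of all 11 libraries without any receptor gene.

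Gabra4 (ENSMUSG00000029211, chr5:71721738-71815722, minus strand), whose start overlaps that of Gabrb1, was at 157.6, 139.8, 140.0 and 201.7 CPM in astrocytes of fl EAE 1 to 4 and at 81.0, 78.2, 98.2 and 76.4 CPM in NestinCre EAE 1 to 4. The groups did not overlap, and the log2 difference was -0.91 (SE 0.22, interval -1.35 to -0.48, adjusted p = 0.020) on 382 UMIs in all. The naive libraries, at 80.7 and 103.6 CPM (fl) and 136.8 CPM (NestinCre), had the opposite order. The 5 Bergmann glia markers that are no astrocyte markers were at 233.8 to 288.3 CPM in fl EAE and 335.7 to 757.8 CPM in NestinCre EAE astrocytes, 4 of 5 at 20 CPM or more. Gabra4 had its highest level in Bergmann glia, and the part of these markers in the result was not tested. The call was lost without fl EAE 1 (-0.91, adjusted p = 0.059), fl EAE 3 (-0.95, adjusted p = 0.059), NestinCre EAE 2 (-0.90, adjusted p = 0.088), fl EAE 4 (-0.65, adjusted p = 0.36) or NestinCre EAE 4 (-0.66, adjusted p = 0.35), in run 1 alone (-0.65, adjusted p = 0.36), with DESeq2 (-0.90, adjusted p = 0.18) and when nuclei over 6000 UMIs were left out (-0.79, adjusted p = 0.10).

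**Figure D4:**
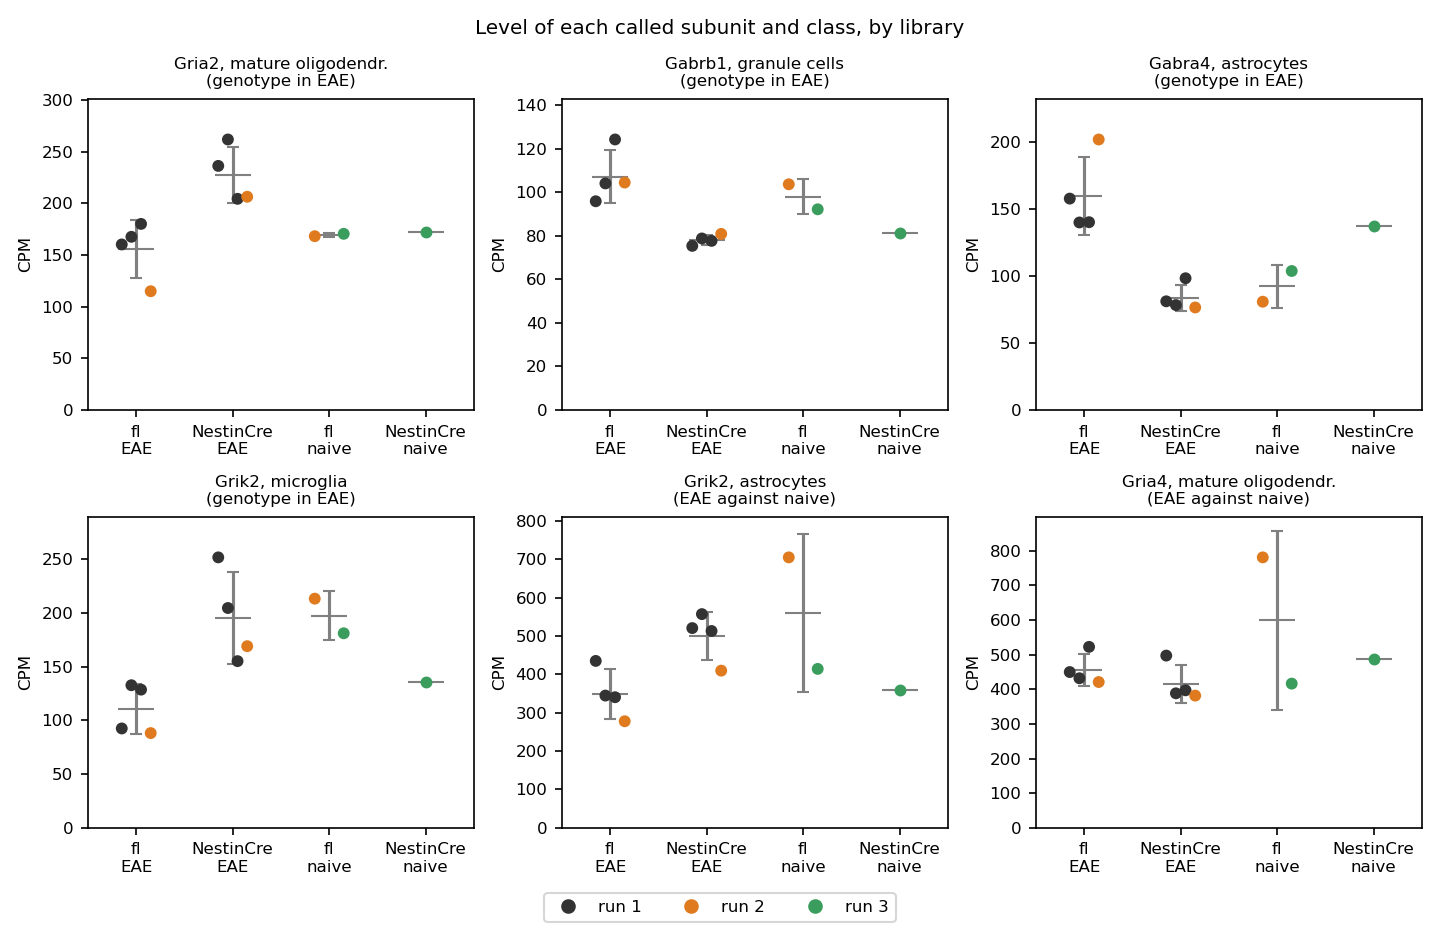
Level (CPM, axes from 0) of each of the 6 called pairs of subunit and class in every library, by group and coloured by sequencing run, with the mean and SD bars of groups of 2 or more. In the 4 genotype panels the fl EAE and NestinCre EAE points do not overlap. In the 2 panels for EAE against naive fl naive 2 of run 2 is the highest point, at 704.9 CPM for Grik2 and 780.6 CPM for Gria4.

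Of the pairs not called, the 6 with the smallest p are given for completeness. Grin1 in type 1 molecular layer interneurons was at 570.2, 589.4, 569.1 and 585.9 CPM in fl EAE 1 to 4 and at 710.3, 702.7, 695.0 and 686.0 CPM in NestinCre EAE 1 to 4. These groups did not overlap and were narrow, but the difference of 0.29 (interval 0.12 to 0.46) did not pass (adjusted p = 0.16). Grik2 differed by 0.54 in astrocytes (adjusted p = 0.17) and by 0.70 in type 1 molecular layer interneurons (adjusted p = 0.18), with overlap in both. Grik2 in type 1 molecular layer interneurons was called without NestinCre EAE 3 (0.85, adjusted p = 7.9e-05), with DESeq2 (0.69, adjusted p = 0.0094) and with every gene of at least 1 UMI tested (0.68, adjusted p = 3.2e-08). DESeq2 and the 1 UMI fit used the same libraries and counts at a like difference, so their smaller p-values add no support. NestinCre EAE 3 (107.0 CPM) lay within the range of fl EAE (86.1 to 111.4 CPM). The level of Grik2 in these interneurons was 2.38% of that in granule cells, against 9.47% for the 4 granule cell transcripts, and the 7 granule cell markers summed to 180.7 to 304.9 CPM in fl EAE and 199.0 to 281.6 CPM in NestinCre EAE, 6 of 7 at 20 CPM or more, whose part was not tested. Grin2a in Golgi cells (0.56, adjusted p = 0.47), Grin3a in type 2 molecular layer interneurons (-0.30, adjusted p = 0.60, no overlap) and Glra3 in the same cells (1.84 on 39 UMIs, adjusted p = 0.59) were not called. In all, 42 pairs had an unadjusted p under 0.05 by edgeR (10.9%, against 7.01% of all pairs), and in 14 pairs the groups did not overlap (3.65%, against 4.20% of all pairs), 9 higher and 5 lower. In neither comparison were all pairs matched to the subunits in level, and the part of level in these shares was not tested.

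**Figure D5:**
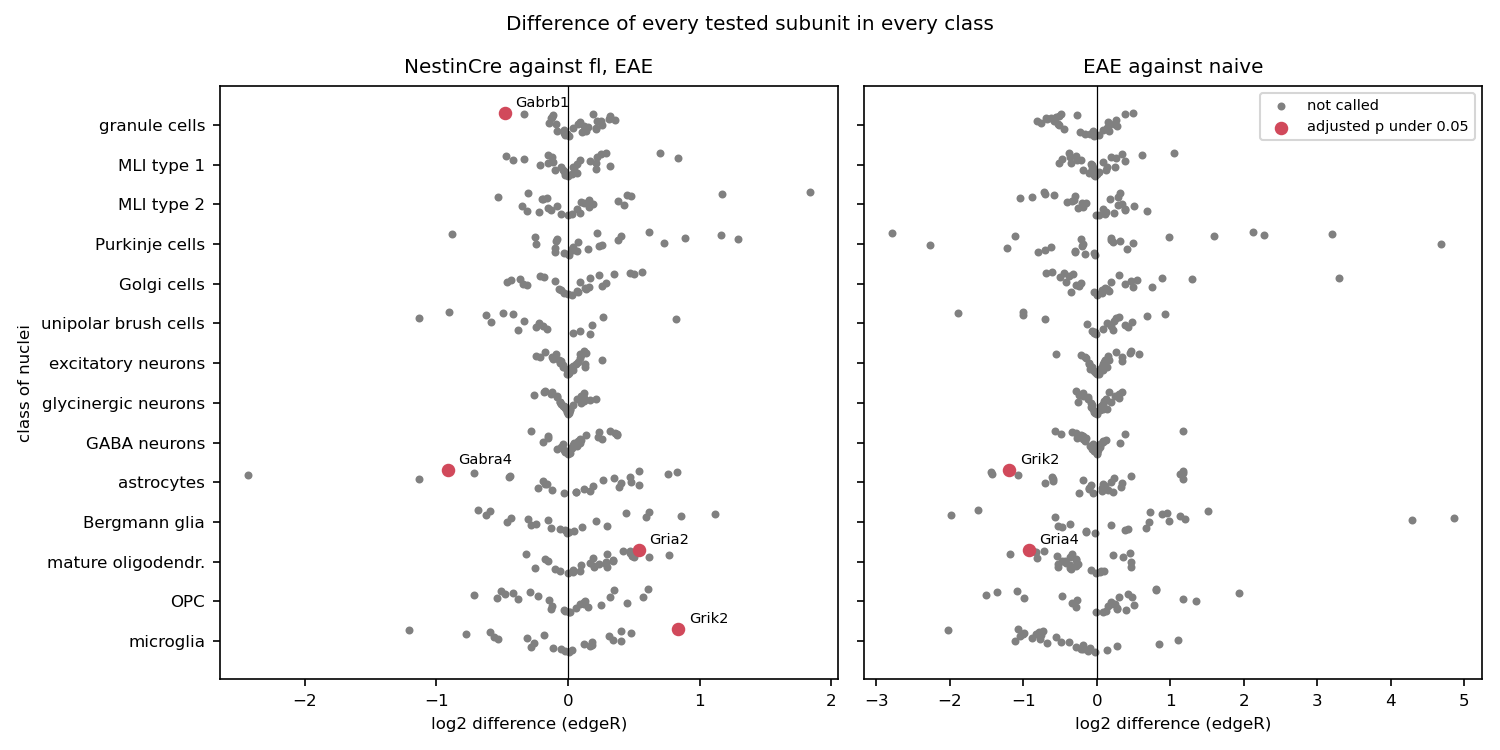
Log2 difference (edgeR) of every tested subunit (points) in every class of nuclei for NestinCre EAE against fl EAE (left) and EAE against naive (right). Red points have an adjusted p under 0.05, 4 on the left and 2 on the right, and most points in neuron classes lie close to 0.

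The second comparison asked how the subunits differed between EAE and naive libraries, with genotype and run in a fit of all 11 libraries. Run 2 was the only run with both states, so the difference rests on fl EAE 4 and NestinCre EAE 4 against fl naive 2, and the lone NestinCre naive library was assumed to vary like the others. The study's reporting summary describes the naive library of run 2 as an internal control for batch effects, and its authors left out all naive libraries from the paper. Of 397 pairs, 2 were called, both lower in EAE (0.504%, against 0.115% of all pairs), and neither was in a neuron class (0 of 260 neuronal pairs by edgeR, where 0.0119% of all neuronal pairs were called and 0.328% of all glial pairs). At an unadjusted p under 0.05, edgeR had 43 of the 397 pairs (10.8%, against 7.13% of all pairs). Of these, 22 were neuronal, and the share for all neuronal pairs is not given. The median size of the difference was 0.20 (log2) in neurons and 0.46 in glia, and 186 of the intervals lay within 1 log2 unit of no difference.

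Grik2 in astrocytes was at 435.0, 344.7, 340.4 and 277.7 CPM in fl EAE 1 to 4, at 520.6, 557.0, 513.0 and 409.7 CPM in NestinCre EAE 1 to 4, at 704.9 and 414.2 CPM in fl naive 2 and 3 and at 359.6 CPM in NestinCre naive. EAE and naive libraries overlapped, and fl naive 2 alone was above all EAE libraries. The log2 difference was -1.19 (SE 0.29, interval -1.76 to -0.62, adjusted p = 0.035). Without run in the model it was -0.20 (adjusted p = 0.91), and in the fl libraries alone -0.62 (adjusted p = 0.53). The call was lost with scored doublets kept (-1.09, adjusted p = 0.099) and with every gene of at least 1 UMI tested (-1.10, adjusted p = 0.06). It was also lost without fl EAE 2, 3 or 4 or NestinCre EAE 2 or 3 (-1.17 to -1.21), and without fl naive 2 the difference could not be estimated. In mature oligodendrocytes Grik2 was at a median of 1302.5 CPM. Their 7 markers, 5 of them at 20 CPM or more in astrocytes, summed there to 311.3 to 1105.8 CPM in fl EAE, 439.7 to 882.0 CPM in NestinCre EAE, 741.1 to 1129.9 CPM in fl naive and 778.9 CPM in NestinCre naive. Grik2 in astrocytes was at 8.84% of its granule cell level, below the 15.1% of the 4 granule cell transcripts, and the part of either in the result was not tested.

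Gria4 (ENSMUSG00000025892, chr9:4417604-4796326, minus strand) in mature oligodendrocytes was at 449.6, 431.7, 522.3 and 420.8 CPM in fl EAE 1 to 4, at 497.1, 388.2, 396.9 and 381.6 CPM in NestinCre EAE 1 to 4, at 780.6 and 416.2 CPM in fl naive 2 and 3 and at 486.8 CPM in NestinCre naive. Again fl naive 2 alone stood above all EAE libraries. The log2 difference was -0.92 (SE 0.21, interval -1.37 to -0.48, adjusted p = 0.044), and it was -0.30 without run in the model (adjusted p = 0.41) and -0.36 in the fl libraries alone (adjusted p = 0.69). Gria4 was at 19.6% of its granule cell level in this class, below the 21.1% of the 4 granule cell transcripts and above the 10.2% of Gabra6. The 7 granule cell markers summed to 398.6 to 583.5 CPM in fl EAE, 455.6 to 609.6 CPM in NestinCre EAE, 305.1 to 526.5 CPM in fl naive and 508.4 CPM in NestinCre naive, 6 of 7 at 20 CPM or more. The 7 markers of Bergmann glia, the class with the highest Gria4, summed to 193.8 to 223.8, 174.2 to 234.3, 175.2 to 231.8 and 246.9 CPM in the same order, 1 of 7 at 20 CPM or more. The part of either list was not tested. The call was also lost without fl EAE 1 or 2, NestinCre EAE 2 or 4, fl naive 3 or NestinCre naive 2 (-0.82 to -0.94), and with RLE factors (adjusted p = 0.054), filterByExpr (0.052), scored doublets kept (0.056) or nuclei over 6000 UMIs left out (0.055), at -0.88 to -0.93.

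Among the pairs not called, Gabra2 in excitatory neurons was at 250.2 to 310.3 CPM in the 8 EAE libraries and at 201.1 to 240.6 CPM in the 3 naive libraries. The groups did not overlap, and the difference was 0.47 (interval 0.22 to 0.72, adjusted p = 0.22), and it was called without run in the model (0.41, adjusted p = 0.027). Grik3 in Golgi cells was at 514.2 to 696.0 CPM in EAE and 772.7 to 880.1 CPM in naive libraries, again without overlap (-0.61, adjusted p = 0.66), and Grik3 in type 2 molecular layer interneurons differed by -0.72 (adjusted p = 0.38). Gabra6 in granule cells was at 845.2 to 987.3 CPM in EAE and 712.3 to 837.3 CPM in naive libraries (0.49, adjusted p = 0.37). Gabra6 in Purkinje cells (2.12, adjusted p = 0.36) was at 104.8 CPM in fl EAE 4 and 19.2 to 57.6 CPM in the other libraries, and the difference was 1.30 without fl EAE 4 (adjusted p = 0.87) and passed without NestinCre EAE 4 (2.39, adjusted p = 0.043) and with every gene of at least 1 UMI tested (2.15, adjusted p = 0.012). The 1 UMI fit used the same libraries and counts at a like difference, so its smaller p is no added support. The Purkinje class of fl EAE 4 stood apart, with 110 nuclei at a median of 3036.5 UMIs against 20 to 67 nuclei at 8344.0 to 16758.5 UMIs in the others, and with the 4 granule cell transcripts at 219.9 CPM against 46.1 to 170.0 CPM, whose part was not tested. Gria2 in astrocytes (1.17, adjusted p = 0.15) and Grik4 in Bergmann glia (-1.61, adjusted p = 0.29) were not called, and in Bergmann glia the median of all genes was itself shifted by 0.23. Groups did not overlap in 22 pairs (5.54%, against 3.19% of all pairs), 8 higher and 14 lower in EAE.

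Proteins that bind these receptors were taken as lists: 16 auxiliary proteins of AMPA and kainate receptors (such as Cacng2, Cnih2 and Neto1), 18 genes of the excitatory postsynaptic scaffold and its signalling (such as Dlg4, Shank3 and Camk2a) and 9 of the inhibitory scaffold (such as Gphn and Nlgn2). None was called in either comparison by edgeR or by DESeq2. At an unadjusted p under 0.05, edgeR had 18 of 174, 20 of 234 and 3 of 114 pairs in the genotype comparison (7.01% of all pairs) and 15 of 183, 18 of 240 and 7 of 116 pairs for EAE against naive (7.13% of all pairs). The median log2 differences of the lists were -0.01, 0.03 and 0.02 for genotype and -0.00, -0.04 and 0.05 for EAE against naive.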

How the data were processed

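Nuclei sorted by a DNA stain were sequenced by the authors with a droplet-based 3′ assay. The deposited matrices, 1 per library, hold raw counts of UMIs per gene and barcode, which the authors made with Cell Ranger on GRCm39 with a GENCODE annotation and intronic reads counted. The methods and the submitters' processing notes name version 6.0.2, and the file headers name 7.0.0 for the 6 libraries of run 1 and 6.0.2 for the other 5.

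Of 189709 barcodes, 188089 passed the limits of 200 genes (run 1) or 500 genes (runs 2 and 3) and 5% mitochondrial UMIs, and the 26822 highest doublet scores (0.8% per 1000 barcodes) were left out. Nuclei were clustered with scanpy 1.11.5 and igraph 0.11.9 on 40 principal components of 3000 variable genes after integration with an implementation of Harmony, with 20 neighbours and Leiden resolutions of 2, 4 and 6. Of 160 clusters, 111 were named from at least 3 detected markers, and 49 with 12349 nuclei (7.66%) stayed unnamed, so class names are rebuilt here and may differ from the study's. UMIs were summed per library and class, and levels are CPM of that sum.

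Genes with at least 20 UMIs in classes of at least 10 nuclei per library entered the quasi-likelihood test of edgeR 4.0.16 (R 4.3.3, TMM, Benjamini-Hochberg within a class over all genes, threshold 0.05). DESeq2 1.42.0, other factors and filters, other sets of nuclei, leaving out libraries, run and a replicate block were the alternatives. The fit was also tested on simulated counts with known changes in genes with a mean of at least 20 UMIs per library. No run effect was simulated, and mature oligodendrocytes and microglia were not among the classes. The rates therefore need not hold for these classes or for genes with fewer UMIs, which were tested from 20 UMIs in total. For genotype, 23 of 205 calls were false in granule cells, 18 of 209 in excitatory neurons and 5 of 180 in astrocytes. For EAE against naive these were 6 of 144, 19 of 190 and 8 of 103. The false share was above the threshold of 0.05 except in astrocytes for genotype and in granule cells for EAE against naive. Changes of 1 log2 unit were recovered at 85%, 92% and 75% in these classes for genotype. For EAE against naive the recovery was 49%, 78% and 19%, so such changes can be missed there. The study gives 4 mice per genotype in EAE, as many as there are libraries, and for the naive libraries p-values measure a spread that may be technical. The replicates numbered 4 carry no number in the labels. The members and all lists were chosen with earlier results of these data known. Named pairs are those called, the 6 with the smallest p not called, and examples of groups that do not overlap. Of the interferon list, 1 gene is not reported here.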

Additional observations from a re-analysis of the deposited data

Results flagged for a closer look

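In 6 of 94 groups of 4 libraries looked at, 1 library lay so far from the other 3 that its gap to the nearest, divided by the range of the group, was above the 95% critical value of Dixon's test for 4 values. Chance gives about 1 in 20, so this number is near it. Of the values the report gives, Glra3 in type 2 molecular layer interneurons was at 8.77 CPM in fl EAE 4, with the other fl EAE libraries at 1.82 to 2.14 CPM. Gria4 in mature oligodendrocytes was at 497.1 CPM in NestinCre EAE 1, with the others at 381.6 to 396.9 CPM. Grik4 in Bergmann glia was at 130.0 CPM in NestinCre EAE 4, the library of run 2, with the others, all of run 1, at 235.9 to 250.5 CPM. Gria1 in Bergmann glia was at 9092.3 CPM in NestinCre EAE 3, with the others at 6240.7 to 6708.2 CPM. Gria2 in unipolar brush cells was at 6831.3 CPM in NestinCre EAE 2, with the others at 5509.3 to 5703.0 CPM. Gria3 in type 1 molecular layer interneurons was at 2650.4 CPM in NestinCre EAE 2, with the others at 2594.4 to 2600.9 CPM, a group whose whole range was narrow.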

How the results depend on the processing

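The 4 genotype calls became 2 when nuclei over 6000 UMIs were left out (Grik2 in microglia and Gabra4 in astrocytes were lost) and 2 to 6 when 1 library was left out (2 without fl EAE 1 or fl EAE 2, 6 without NestinCre EAE 3). They numbered 5 with DESeq2 and 6 with every gene of at least 1 UMI tested. Grin2a in Golgi cells changed sign to -0.43 when nuclei over 6000 UMIs were left out (0.56 with them), and the cause was not tested. The 2 calls for EAE against naive became 1 with RLE factors, 1 with filterByExpr, 1 when nuclei over 6000 UMIs were left out, 0 with scored doublets kept (40 pairs at an unadjusted p under 0.05 by edgeR, 2 calls by DESeq2 with doublets left out), 0 in the fl libraries alone (65 pairs at an unadjusted p under 0.05) and 0 to 3 when 1 library was left out; 0 without fl EAE 2 or NestinCre EAE 2. Without run in the model there were again 2 calls, of which 0 were shared. For these alternatives the share of all gene and class pairs, called or at an unadjusted p under 0.05, is not given. Their counts therefore cannot be set against the general rate. The cause of these changes was not tested. Of the alternatives for single pairs, 151 of 169 (genotype) and 190 of 216 (EAE against naive) kept direction and side of the threshold.

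The class of the highest median was the same for 30 of 31 subunits with doublets kept and for 30 with nuclei over 6000 UMIs left out, but for 16 when UMIs were divided by nuclei instead of by the UMIs of the class, a scale on which large nuclei stand higher and 27 subunits, in place of 22, were highest in neurons. Per nucleus, Gria2, Gria3, Grik4 and Gabrb2 moved to Purkinje cells. Grik2, Grin1, Grin2a, Grin2d, Grin3b and Glrb moved to glycinergic neurons. Grik5, Grin2b and Gabra2 moved to excitatory neurons, and Grid1 and Gabrg1 to Golgi cells. The labels give both EAE groups the same replicate numbers. With a replicate block the genotype comparison again had 4 calls. In run 1, deviations of libraries with the same number correlated at -0.03, 0.33 and 0.40 over 12024 genes, and fl EAE 1 correlated best with NestinCre EAE 2 (0.12), so numbers 2 and 3 had the highest correlations and number 1 did not, and whether the numbers pair the libraries was not settled. A difference between EAE and naive could not be estimated without fl naive 2. Depth limits the small classes and low genes most: Grin3b had 1690 UMIs in all.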
